A study of Mus musculus with 16 samples.

Results

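The response to withdrawal of leukemia inhibitory factor (LIF) was measured in mouse embryonic stem cells whose CTCF function came from a wild-type transgene. A gene was a member if its normalised count averaged 10 or more across the 4 libraries of this line, which kept 17556 of the 55291 genes in the table. A normalised count is a read count scaled by 1 factor per library. The cells were E14Tg2a, strain 129/Ola, in which endogenous CTCF, a zinc finger protein that anchors chromosome loops, carried an auxin-inducible degron. Both media held 500 µM indole-3-acetic acid, which triggers loss of the endogenous protein, and 1 µg/ml doxycycline, which switches on the transgene, with 2 days given for this treatment. The LIF group (2 libraries) grew in 15% serum with LIF, 3 µM CHIR99021 and 1 µM PD0325901. The group without LIF (2 libraries) spent 3 days in the same serum medium lacking LIF, CHIR99021 and PD0325901, so effects of LIF and of either inhibitor cannot be told apart. Lines with the R342C, K365T or Q418R form of CTCF, 2 libraries per medium each, were treated the same way and serve as a comparison at the end. Each genotype is represented by a single line, and the labels do not say that its libraries came from separate cultures, so p-values measure only the spread between these libraries. At the edge of the membership rule, Gm50147, Gm47092 and Mir466e lay just inside the minimum, and Gm48847, Nkx2-9 and BC053393 just outside it.

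LIF binds a receptor made of LIFR and gp130 (gene Il6st), which activates JAK kinases and through them the transcription factor STAT3. In mouse embryonic stem cells this input sustains a set of transcription factors that hold the naive pluripotent state, the state of the preimplantation epiblast. CHIR99021 inhibits GSK3 and so stabilises β-catenin, the effector of canonical Wnt signalling, and PD0325901 inhibits MEK, the kinase upstream of ERK. When these inputs are removed, cells pass through a formative state toward lineage priming.

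Depth in the 4 libraries was 21870737 to 31935381 reads. Medium separated them along the first principal component (90.5% of variance), and the second component (6.63%) separated replicates, more widely without LIF. Replicate 2 without LIF stood apart, with structural RNAs at 5.02% of its counts, where the series' remaining 15 libraries had 1.96% to 3.88%, and with 10.8% of its counts in its 10 most abundant genes against at most 8.10% elsewhere. The SD of log2 differences between replicates was 0.27 in LIF and 0.40 without it. Embryonic stem cell markers were all tested and present in both media. Their summed TPM (transcript abundance scaled for gene length and depth) was 3345 and 2934 in LIF and 2569 and 2135 without it. Members moved in opposite directions. Nanog had 979 and 836 in LIF and 96.0 and 74.4 without LIF, and Pou5f1, Sox2, Sall4, Fgf4 and Cdh1 were also lower. Utf1 had 44.4 and 40.2 in LIF and 722 and 677 without LIF, and Epcam and Dppa4 were also higher. Summed TPM of 8 fibroblast markers was 4.82 and 5.90 in LIF and 31.3 and 43.9 without LIF, with 4 of 8 under 1 TPM in both media. Thy1 made up most of the sum without LIF (1.72 and 2.11 in LIF and 27.0 and 38.5 without LIF), and Pdgfra was lower there (1.75 and 1.77 in LIF and 0.452 and 0.448 without LIF). Trophoblast markers gave 85.7 and 90.1 against 43.0 and 32.5, of which Tfap2c had 73.2 and 79.2 in LIF and 25.1 and 15.2 without LIF, while Ascl2 had 6.98 and 7.56 in LIF and 14.2 and 14.0 without LIF and Krt7 was also higher without LIF. Endoderm markers gave 7.55 and 7.93 against 12.8 and 12.9, of which Gata4 had 5.43 and 5.65 in LIF and 11.1 and 10.9 without LIF, while Gata6 was lower without LIF (1.05 and 1.26 in LIF and 0.483 and 0.541 without LIF). The part of these cell types in the gene-level results was not tested. In bulk RNA, fewer cells of a type and less RNA per cell cannot be told apart. Ctcf itself gave 6956 and 5853 in LIF and 6242 and 5292 without LIF, and the difference did not pass the test (log2 -0.15, adjusted p = 0.43); the value sums endogenous and transgene RNA as far as both map to the gene.

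Withdrawal changed about as many genes upward as downward. Of 17556 genes, 8584 (48.9%) passed an adjusted p of 0.05 in limma with Benjamini-Hochberg adjustment, 4175 (23.8%) higher and 4409 (25.1%) lower without LIF. Differences are given as log2 of the normalised count plus 4, without LIF minus LIF, ± SE, with 2 libraries per medium. A rise of at least 1 was called in 2663 genes (15.2%) and a fall of at least 1 in 2369 (13.5%). The extremes leaned toward loss: 78 genes fell by at least 5 and 55 rose by at least 5. The libraries of the media did not overlap in 12954 genes (73.8%). For 2334 genes (13.3%) the 95% interval lay within 0.5 of 0 on both sides, and these are called steady here. The remaining uncalled genes cannot be counted as unchanged. Without replicate 2 of the group without LIF, 7104 genes passed, 3472 higher and 3632 lower.

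**Figure D1:**
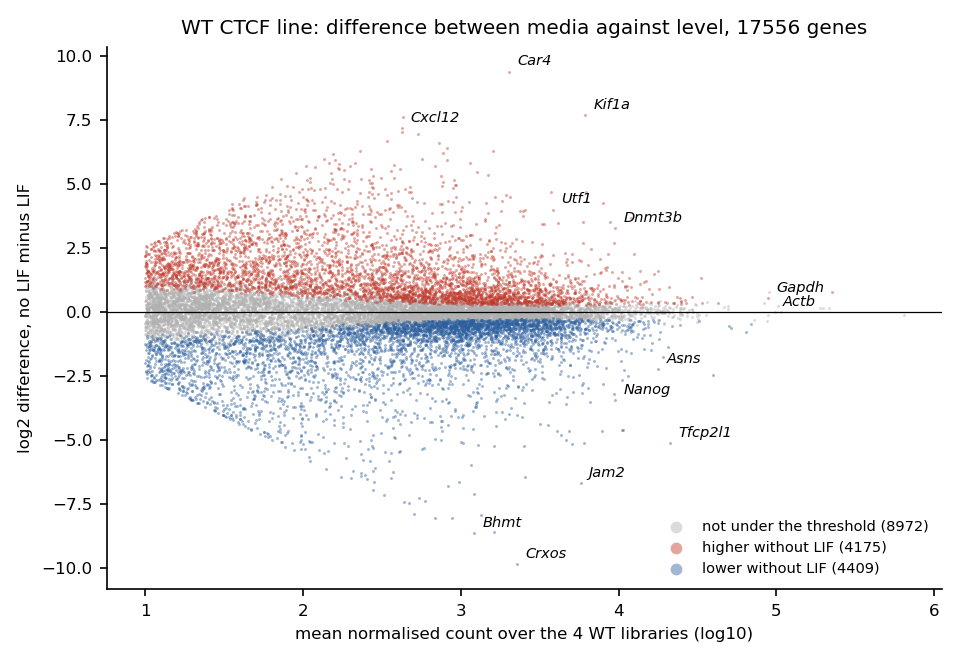
Log2 difference between media (no LIF minus LIF, vertical axis) against log10 of the mean normalised count over the 4 wild-type libraries (horizontal axis), 1 point per tested gene. The 4175 genes called higher (red) lie above 0 and the 4409 called lower (blue) below it, with uncalled genes in grey and some genes labelled.

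The largest rises started from low levels in LIF. Besides Car4, Kif1a, Fam131b, Cxcl12 and Ccdc194, the 15 largest rises included Thbs1, Car14, Fbxo32, Mrc2, Lefty1, Cacna1b, Ms4a4d, Syt13 and Wt1. Thbs1, which encodes the matrix glycoprotein thrombospondin 1, gave 3.89 and 5.40 in LIF and 1048 and 1085 without LIF (6.96 ± 0.38 SE, adjusted p = 4.8e-09). Fbxo32, a substrate adaptor of a ubiquitin ligase known from muscle wasting, gave 9.35 and 11.9 in LIF and 1151 and 1733 without LIF (6.60 ± 0.42 SE). Both were near silent in the LIF libraries and high in both libraries without LIF. Lefty1, a secreted Nodal antagonist, gave 45.2 and 19.4 in LIF and 4899 and 1425 without LIF (6.28 ± 0.54 SE). Wt1, a zinc finger transcription factor of kidney and gonad development, gave 2.34 and 4.32 in LIF and 535 and 318 without LIF (5.84 ± 0.36 SE). For all genes named here, the rule that picked them required that the libraries of the media not overlap. Cacna1b, a presynaptic calcium channel subunit, rose by 6.22 and Syt13, a synaptotagmin, by 5.95. Car14, a membrane carbonic anhydrase, rose by 6.69 and Mrc2, a collagen uptake receptor, by 6.43. Ms4a4d, for which only 1 read was counted over both LIF libraries, was 599 times higher (95% exact interval 107 to 23712) without LIF.

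Among the 15 largest falls, Crxos, Bhmt, Ly6a, Aox3, Dmgdh and Cdx1 were followed by Mgat4c, Serpinb6c, Pramel6, Emp1, Serpinb1a, Xaf1, Jam2, Spic and Myh13. Mgat4c, a glycosyltransferase gene, gave 1209 and 1173 in LIF and 2.87 and 3.37 without LIF (-7.39 ± 0.26 SE, adjusted p = 1.3e-10). Spic, an ETS-family transcription factor, gave 526 and 602 in LIF and 3.83 and 0 without LIF (-6.66 ± 0.61 SE). Jam2, a tight junction adhesion molecule, gave 11889 and 10857 in LIF and 111 and 102 without LIF (-6.68 ± 0.34 SE). The same rule picked these falls. Without LIF, Jam2 kept a measurable level and Mgat4c and Spic were near 0. Xaf1, an interferon-inducible pro-apoptotic gene, fell by 6.80, Emp1, an epithelial membrane protein gene, by 7.13, and Myh13 encodes a skeletal muscle myosin heavy chain (-6.65). Pramel6, a member of a reproductive gene family active in early embryos, was 1215 times lower (95% exact interval 218 to 48033). Such low counts leave the ratio wide, and these intervals cover counting error only.

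**Figure D2:**
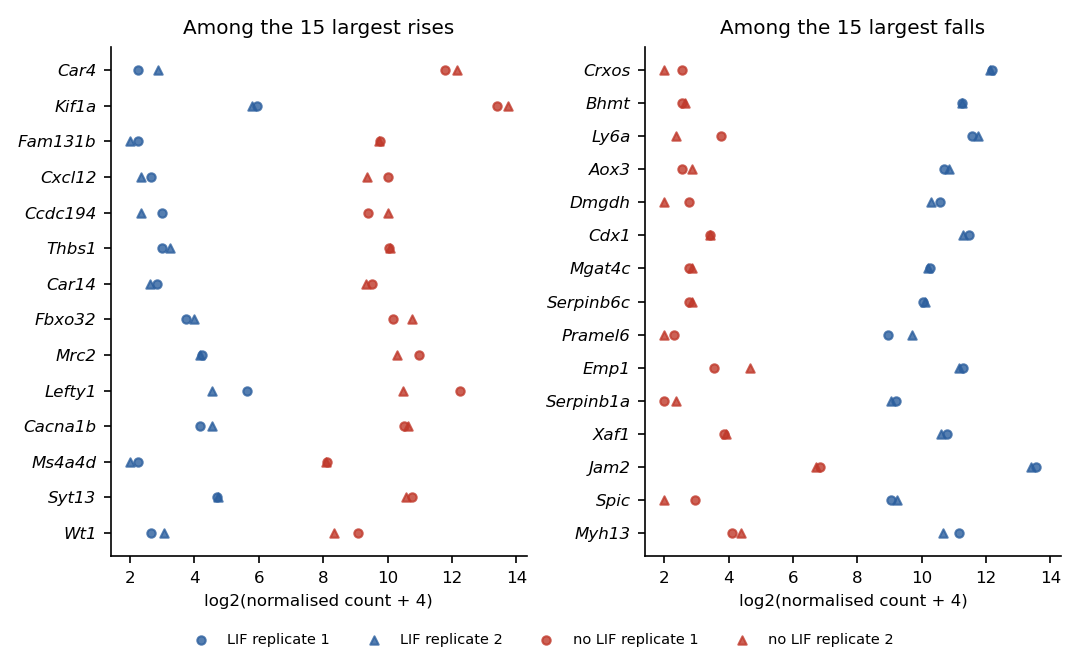
Log2 of the normalised count plus 4 (horizontal axis) for genes among the 15 largest rises (left) and 15 largest falls (right), 1 point per wild-type library, blue in LIF and red without LIF, with the marker shape giving the replicate. The libraries of the media do not overlap for any of these genes, which the naming rule required.

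The transcription factors of the naive state fell as a group, and genes of the formative state rose. All 13 naive factors tested fell, with a median of -2.84 against -0.01 over all genes, and their summed TPM was 4406 and 3849 in LIF and 469 and 428 without LIF. Prdm14, a repressor of germ layer and DNA methylation genes, gave 577 and 565 in LIF and 5.74 and 3.37 without LIF (-6.08 ± 0.50 SE). Nr5a2, an orphan nuclear receptor, gave 3356 and 2941 in LIF and 89.0 and 70.7 without LIF (-5.24 ± 0.25 SE). Tfcp2l1, a STAT3 and Wnt-responsive factor, gave 41067 and 41697 in LIF and 919.7 and 1513 without LIF (-5.13 ± 0.30 SE). The 3 genes were lower in both libraries without LIF than in either LIF library. Of 25 formative and primed genes, 20 rose and none fell, with a median of 2.31 (1.52 to 2.41 over the alternatives). Pou3f1, a POU factor of the postimplantation epiblast, gave 50.6 and 48.6 in LIF and 2383 and 1172 without LIF (4.97 ± 0.41 SE), and Utf1, a chromatin-associated epiblast factor, 460.3 and 430.1 in LIF and 6739.6 and 7679 without LIF (adjusted p = 1.1e-08). Igfbp2, an insulin-like growth factor binding protein and an abundant member, was not called (log2 0.33, adjusted p = 0.055), but was with a replicate block (0.014) and in edgeR (0.05). These lists were known from earlier results of the same data and are not independent evidence of direction.

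Genes of the LIF and STAT3 pathway moved unevenly. Of 23 tested, 10 fell, 4 rose and 9 were not called, with a median of -0.33 (-0.38 to -0.08 over the alternatives). The shares higher and lower were 17.4% and 43.5%, against 23.8% and 25.1% of all genes. The receptor and kinase genes Lifr (-1.97), Il6st (-0.42), Jak1 (-0.43) and Tyk2 (-0.55) fell, whereas Jak2 (1.16) rose. Il6st lost its call without LIF replicate 1 (adjusted p = 0.072) and without replicate 1 of the group without LIF (0.053). Among targets, Bcl3, an IκB-family coactivator, gave 1293 and 1106 in LIF and 92.8 and 79.7 without LIF (-3.74 ± 0.22 SE), lower in each library without LIF. Socs2 (2.15) rose while Socs3 (-4.04) fell, although both encode feedback inhibitors of cytokine signalling. Mcl1, an anti-apoptotic BCL2 relative, rose by 0.98, and Pim1, a survival kinase, was not called (log2 -0.23, adjusted p = 0.35).

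The promoter of Socs3 is shown because it held the STAT letters TTCNNNGAA, searched on both strands (the motif reads alike on each) in RefSeq windows from 250 bases before to 50 after a start. It spans the 180 bases before the start, at chr11:117969367-117969546, minus strand, GRCm38.p6 sequence from RefSeq, with the match in capitals.
Socs3: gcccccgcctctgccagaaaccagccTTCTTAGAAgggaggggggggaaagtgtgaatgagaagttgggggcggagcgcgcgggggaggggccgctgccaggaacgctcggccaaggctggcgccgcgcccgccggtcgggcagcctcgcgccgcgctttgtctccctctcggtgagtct
The match began 154 bases before the start. Sbno2, which fell by 0.85, held matches in the windows of 2 different starts, and Cish, which gave 75.5 and 116 in LIF and 133 and 136 without LIF and was not called, held 2 in 1 window. These were the genes with a match among 20 pathway genes with a window. Of the 26 windows of these genes, 4 held a match, against 6.58% of all 15191 windows. A match is a description of the letters only.

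More genes of the FGF and ERK pathway rose than fell. Of 30 tested, 13 rose and 5 fell, with a median of 1.09 (0.51 to 1.16 over the alternatives). The shares were 43.3% and 16.7%, against 23.8% and 25.1% of all genes. Among ligands, Fgf5, a marker of the primed epiblast, was 265 times higher (95% exact interval 47.1 to 10503), and the naive-state ligand Fgf4 fell by 1.92. The receptor Fgfr2 gave 101 and 51.9 in LIF and 1685 and 1222 without LIF (4.23 ± 0.25 SE), with no overlap between media. Fgfr3 (2.35) rose too. Feedback inhibitors were split: Spry1 (1.68), Spry4 (4.49), Spred1 (1.09) and the phosphatases Dusp4 (4.58), Dusp5 (2.69) and Dusp6 (2.85) rose. Spry2 (-2.36) and the phosphatase Dusp14 (-2.56) fell, and Spred2 was not called (log2 0.26, adjusted p = 0.15). Etv5, an ETS factor downstream of ERK, gave 7432 and 7665 in LIF and 5474 and 4041 without LIF and fell by 0.68. Etv5 lost its call without replicate 2 of the group without LIF (adjusted p = 0.053). The ETS letters CCGGAAG were in none of the windows of 19 genes of this list, and in 15.7% of all windows.

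Wnt targets and components moved in both directions. Of 28 tested, 7 rose and 10 fell (25% and 35.7%, against 23.8% and 25.1% of all genes), with a median of -0.18 (-0.21 to -0.06 over the alternatives). The targets Sp5 (-6.23), Cdx1 (-7.96), Dkk1 (-5.14), Notum (-1.90) and Axin2 (-1.96) fell, while the targets and inhibitors Nkd1 (1.67) and Nkd2 (3.08) rose. The secreted antagonist Sfrp1 fell by 3.17, and its relative Sfrp2 gave 1508 and 1373 in LIF and 3523 and 3393 without LIF and rose by 1.26. The nuclear partners of β-catenin also divided, with Tcf7l2 lower (-0.63) and Lef1 (2.03) and Tcf7 (1.05) higher. Lef1 lost its call on TPM (adjusted p = 0.11). Ctnnb1, which encodes β-catenin, gave 17856 and 17454 in LIF and 17699 and 17218 without LIF and was not called (log2 -0.02, adjusted p = 0.91). Among 20 tested ligand and receptor genes, 10 rose and 6 fell (50% and 30%, against 23.8% and 25.1% of all genes). Fzd10 gave 3371 and 2802 in LIF and 316 and 238 without LIF (-3.47 ± 0.32 SE) and Fzd7 gave 797 and 673 in LIF and 5100.2 and 4793 without LIF (2.75 ± 0.14 SE), opposite directions in a family of Frizzled receptors. The ligand Wnt4 rose by 3.08 and Wnt5b fell by 2.95.

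The upstream region of Sp5 is shown because Sp5 was the only gene of the Wnt list, among 18 with a window, to hold the TCF/LEF letters CTTTGAT on either strand. It covers 130 bases before the start, chr2:70474793-70474922, plus strand (GRCm38.p6, RefSeq), with the match in capitals.
Sp5: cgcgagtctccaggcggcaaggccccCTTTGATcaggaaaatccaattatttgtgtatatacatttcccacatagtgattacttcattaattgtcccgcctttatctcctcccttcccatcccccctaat
The match began 104 bases before the start. Over all windows 2.55% held these letters, and of the windows of genes that fell by at least 3, 5.35%.

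Notch and Hippo genes rose more often than they fell, 14 against 5 of 27 (51.9% and 18.5%, against 23.8% and 25.1% of all genes). The Notch ligand Dll4 gave 7.01 and 5.40 in LIF and 61.3 and 85.3 without LIF (2.91 ± 0.49 SE), and Dll1 (2.89), Dll3 (1.54) and Jag2 (1.53) rose with it, while the ligand Jag1 (-0.88) fell. Jag1 lost its call on TPM (adjusted p = 0.09), without LIF replicate 2 (0.15) and without replicate 2 of the group without LIF (0.26). Hes6 (2.46), a basic helix-loop-helix factor of neurogenesis, rose. The TEAD factors, which bind DNA for YAP, exchanged: Tead4 gave 1976 and 2169.7 in LIF and 150.3 and 284 without LIF (-3.30 ± 0.29 SE) and Tead2 gave 2147 and 2457 in LIF and 4819 and 5365 without LIF (1.15 ± 0.16 SE). In both genes the libraries of the media did not overlap, as in 73.8% of all genes. Ccn2, a YAP target, was not called (log2 0.38, adjusted p = 0.22). The count of fallen genes was unstable, 3 without LIF replicate 1, 2 without replicate 2 of the other medium and 3 on TPM.

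Retinoic acid genes moved in both directions. Of 19 tested, 9 rose and 7 fell (47.4% and 36.8%, against 23.8% and 25.1% of all genes). Among synthesising enzymes, Aldh1a2, with 255 and 259 in LIF and 10.5 and 8.98 without LIF (-4.25 ± 0.35 SE), and Aldh1a3 (-3.77) fell. The retinol dehydrogenase genes Rdh10 (0.74) and Rdh11 (1.22) rose. The binding protein Crabp2 gave 93.5 and 57.3 in LIF and 862 and 978 without LIF (3.58 ± 0.23 SE) and rose, as did the degrading enzyme Cyp26a1 (1.48). Cyp26a1 lost its call without LIF replicate 1 (adjusted p = 0.063) and without replicate 2 of the group without LIF (0.12). Receptors went both ways, with Rarg (1.94) higher and Rxra (-0.50) and Rarb (-1.33) lower. Rxrg was 187 times higher (95% exact interval 33.1 to 7438), and Stra8, a retinoid-induced meiosis gene, fell by 2.33.

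Polycomb and Trithorax genes moved in both directions within complexes. Of 34 tested, 8 rose and 13 fell (23.5% and 38.2%, against 23.8% and 25.1% of all genes), with a median of -0.18 (-0.18 to -0.11 over the alternatives). The PRC2 core genes Eed, with 4655 and 4057 in LIF and 1571 and 1322 without LIF (-1.59 ± 0.16 SE), and Suz12 (-0.71) fell. The core genes Ezh2 (log2 -0.18, adjusted p = 0.22) and Ezh1 (log2 0.62, adjusted p = 0.074) were not called. The accessory gene Phf19 (3.01) rose while its relative Mtf2 (-1.11) fell. Among the chromobox subunits of PRC1, Cbx8, with 190.0 and 201 in LIF and 20.1 and 15.7 without LIF (-3.19 ± 0.29 SE), fell, and Cbx6 (0.76) and Cbx7 (0.71) rose. Phc1, a PRC1 subunit, rose by 1.18.

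More glycolysis genes rose than fell, and more nuclear genes of the respiratory chain fell than rose. Of 29 glycolysis genes, 16 rose and 6 fell (55.2% and 20.7%, against 23.8% and 25.1% of all genes). Their summed TPM was 8101 and 7326 in LIF and 11089 and 10521 without LIF. The lactate exporter Slc16a3 gave 115 and 115 in LIF and 2362 and 1450.0 without LIF (3.96 ± 0.33 SE), and Pdk1, a kinase that restrains pyruvate dehydrogenase, gave 1308 and 984 in LIF and 6662 and 3834 without LIF (2.15 ± 0.21 SE). Gapdh rose by 0.55. Entry-step enzymes exchanged, with Hk1 (-2.42), Hk2 (-1.46) and Pfkp (-2.10) lower and Pfkl (1.95) higher. Ldhb, a lactate dehydrogenase subunit gene, was not called (log2 0.42, adjusted p = 0.39).

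Of 37 complex I genes, none rose (against 23.8% of all genes) and 16 fell (43.2%, against 25.1%), with a median of -0.36. Ndufb4 gave 1109.7 and 1288 in LIF and 509 and 561 without LIF (-1.16 ± 0.14 SE), and Ndufs5 (-0.82), Ndufb5 (-0.82) and Ndufb7 (-0.63) followed. Of 42 genes of the other complexes, 21 fell (50%) and Sdhd alone rose (2.38%). With a replicate block 2 rose, as on TPM and with upper-quartile scaling. Cox7a1, a cytochrome oxidase subunit typical of heart and muscle, gave 428 and 363 in LIF and 78.5 and 71.8 without LIF (-2.33 ± 0.24 SE), and Cox5a fell by 1.13. These counts depended on single libraries: without LIF replicate 1, 4 complex I genes and 13 of the others fell. Without replicate 2 of the group without LIF, 8 complex I genes fell, and on TPM 9. Ndufb7 lost its call on TPM (adjusted p = 0.063), without LIF replicate 1 (0.082) and without replicate 2 of the group without LIF (0.1). Sdhd lost its call without LIF replicate 2 (adjusted p = 0.084) and without replicate 2 of the group without LIF (0.058).

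Of 20 cytosolic tRNA synthetase genes, 12 fell (60%, against 25.1% of all genes), with a median of -0.41. Kars (0.39) alone rose (5%, against 23.8%). Tars gave 7675 and 7858 in LIF and 4500.1 and 4374 without LIF (-0.81 ± 0.12 SE) and Mars1 6072 and 6353 in LIF and 3688 and 3486 without LIF (-0.79 ± 0.11 SE). Without LIF replicate 2 the count that fell was 7. Kars lost its call without LIF replicate 2 (adjusted p = 0.056). Genes of the ATF4 amino acid response, of which 4 rose and 9 fell among 29 (13.8% and 31.0%, against 23.8% and 25.1% of all genes), did not move as a block. Asns, asparagine synthetase, gave 29266 and 29564 in LIF and 5722 and 6879 without LIF (-2.23 ± 0.18 SE), whereas Slc7a11, the cystine transporter, gave 42.1 and 59.4 in LIF and 199 and 299.7 without LIF (2.20 ± 0.41 SE). Both differed without overlap, as did 73.8% of all genes, and in opposite directions. Atf5 fell by 1.54 and Ddit4, an mTORC1 inhibitor, rose by 1.29. Without LIF replicate 2, 4 of the list fell.

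The regions before Asns and Slc7a11 are shown because these genes moved in opposite directions while both held the ATF4 letters TGATGNAA, searched on both strands. Each covers 100 bases before the start, Asns at chr6:7693210-7693309, minus strand and Slc7a11 at chr3:50443614-50443713, minus strand (GRCm38.p6, RefSeq), with matches in capitals.
Asns: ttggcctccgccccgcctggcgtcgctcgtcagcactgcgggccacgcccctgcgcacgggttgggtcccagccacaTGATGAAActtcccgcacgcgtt
Slc7a11: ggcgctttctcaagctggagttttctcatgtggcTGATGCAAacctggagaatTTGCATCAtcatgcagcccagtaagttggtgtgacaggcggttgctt
The Asns match began 23 bases before the start, and those of Slc7a11 began 66 and 47 bases before it, on opposite strands. Of the 31 windows of this list, 11 held a match, against 2.26% of all windows. The list was drawn up as amino acid stress genes and ATF4 targets, so this is a description only. By gene, 11 of 26 with a window held a match. Among these, Atf3, Chac1, Trib3, Fgf21 and Nupr1 were not called. The synthetase genes Gars (-0.34) and Aars (-0.67) also held a match and fell. Gars lost its call on TPM (adjusted p = 0.053), without LIF replicate 2 (0.12) and without replicate 1 of the group without LIF (0.13). Aars lost its call without LIF replicate 2 (adjusted p = 0.06) and without replicate 1 of the group without LIF (0.091).

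More antigen presentation genes rose than fell. Of 22 genes of MHC class I and innate sensing, 11 rose and 4 fell (50% and 18.2%, against 23.8% and 25.1% of all genes). The class I heavy chain gene H2-D1 gave 311 and 282 in LIF and 1285 and 2463 without LIF (2.57 ± 0.32 SE), and H2-K1 (2.15), B2m (1.90), the peptide transporters Tap1 (1.68) and Tap2 (2.17), and Nlrc5 (1.82), the class I transactivator, rose. Nlrc5 lost its call on TPM (adjusted p = 0.51). The immunoproteasome gene Psmb8 was 21.3 times higher (95% exact interval 6.93 to 106). Tlr3, a sensor of double-stranded RNA, rose by 2.63, while Oas1a, another such sensor, gave 539.7 and 421 in LIF and 59.3 and 57.2 without LIF and fell by 2.95. Ifitm2, an abundant member, was not called (log2 -0.39, adjusted p = 0.098), but was with a replicate block (0.038). Reads of near-identical class I genes can be split by counting, so single values of that family are uncertain.

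Potassium channel genes rose more often than they fell, 29 against 8 of 52 tested, out of 94 in the table. The shares were 55.8% and 15.4%, against 23.8% and 25.1% of all genes. Kcnk1, a leak channel, gave 50.6 and 98.3 in LIF and 1348 and 1456 without LIF (4.23 ± 0.23 SE), and Kcnt1 rose by 4.09. On TPM 5 fell and Kcnq3 (3.38) lost its call. Of 22 glutathione S-transferase genes, which conjugate toxic compounds, 12 rose (54.5%) and 5 fell (22.7%). Gstt1 gave 24.9 and 30.3 in LIF and 897 and 947 without LIF (4.88 ± 0.41 SE) and Mgst1 (4.02) and Gstp1 (1.61) rose, whereas the alpha-class Gsta3 (-4.11), Gsta2 (-3.98) and Gsta4 (-0.86) fell. Serpins, a family of protease inhibitors, fell in 11 of 18 tested cases (61.1%) and rose in 3 (16.7%). Serpinb6c gave 1059 and 1108 in LIF and 2.87 and 3.37 without LIF (-7.26 ± 0.28 SE), Serpinb1a was 1088 times lower (95% exact interval 195 to 43015) and Serpina3i 132 times lower (95% exact interval 23.4 to 5259.7). Serpinb9b fell by 4.86. Serpins of the b clade and glutathione S-transferases are close copies, and reads shared between them could not be separated.

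Ribosomal protein genes were mostly steady. Of 80, 54 (67.5%) were steady, against 13.3% of all genes, with a median of 0.12 (0.02 to 0.21 over the alternatives). A gene with a 95% half-width of 0.5 or more cannot be steady, and the median half-width over all genes was 0.50. The part of interval width in this contrast was not tested. The falls were in Rpl10l (-2.28), Rpl39l (-2.11) and Rpl3l (-1.17), retrogene or tissue-restricted relatives of core genes. With a replicate block 5 fell. Rpl3l lost its call without LIF replicate 1 (adjusted p = 0.093) and without replicate 1 of the group without LIF (0.075). The number that rose, 8, was 2 without LIF replicate 2, 3 without replicate 2 of the other medium, 14 with upper-quartile scaling and 15 with a replicate block. Rpl13a rose by 0.60. Rplp1 gave 22236 and 20187 in LIF and 19446 and 21452 without LIF, and Actb, cytoplasmic actin, 105471 and 90795 in LIF and 100552 and 93818 without LIF. Their 95% intervals, like that of Eef1a1, a translation elongation factor, lay within 0.5 of 0.

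**Figure D3:**
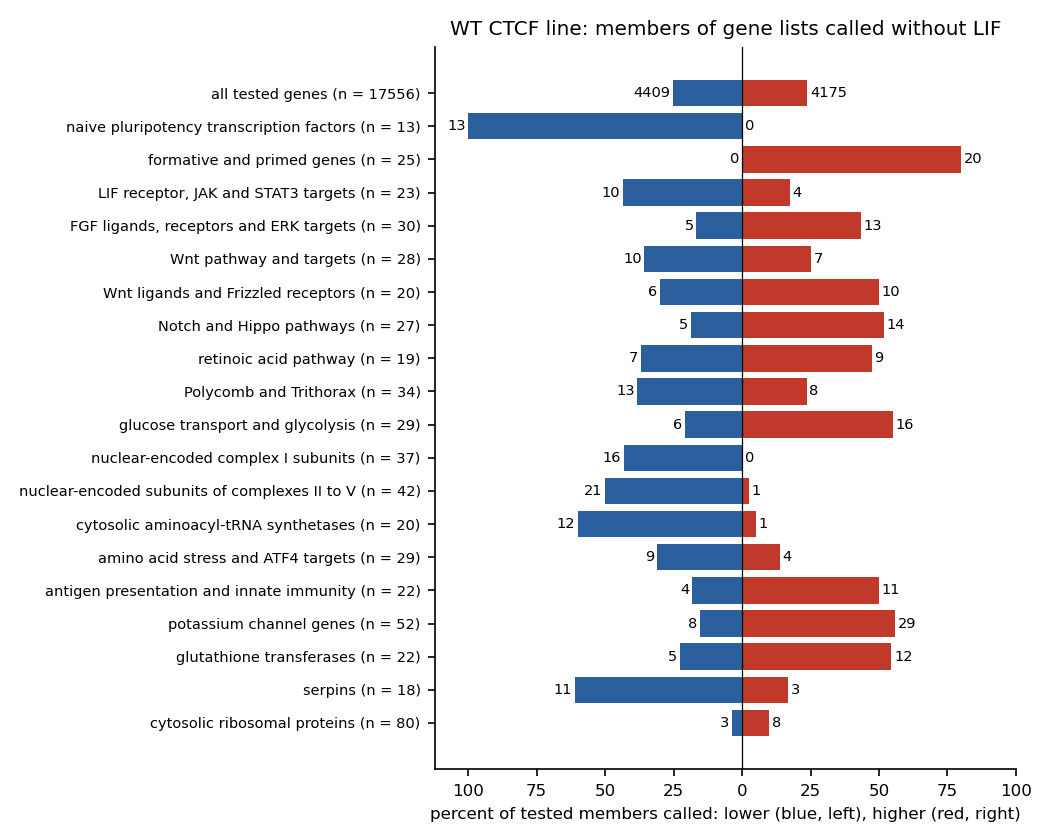
Percent of the tested members of each gene list described that were called lower (blue bars, to the left) or higher (red bars, to the right) without LIF, with the number of genes at each bar and the number tested beside each list name. All 13 naive factors were lower and 20 of 25 formative genes higher, against 4409 lower and 4175 higher of all 17556 genes.

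Changed genes also lay side by side. A run was set as at least 4 neighbouring tested genes that all rose or all fell by at least 1. There were 109 runs with 521 genes, 59 lower and 50 higher runs (GENCODE M21, mm10). Among all genes, 5032 (28.7%) were called at that size, and whether runs exceed what this share gives was not tested. Some runs were mostly entries that are not protein-coding, as in the run from Chd9 to Gm45363, with 1 protein-coding gene of 5. The counting strand is not known, so neighbouring entries may share reads. The longest fall, 10 genes at chr15:102921103-103167092, covered the HoxC cluster from Hoxc13 to Hoxc4 with Smug1. Hoxc9 was 138 times lower (95% exact interval 24.3 to 5467), and Hoxc6 was at least 16.9-fold lower (floor of 3 reads over both libraries). Hoxc13, with 368 and 390.1 in LIF and 61.3 and 102 without LIF, kept the highest level of these Hox genes without LIF. A second run of 10 falls, chr7:42561414-43192109, held the zinc finger genes Zfp977, Zfp976, Zfp975 and Zfp936, with a median of -1.63; these are close copies. A run of rises on chromosome 8 held Irx3, the homeobox gene Irx5 (2.22), the matrix protease Mmp2 (4.92) and the G protein subunit gene Gnao1 (4.19). Irx3 gave 29.6 and 33.5 in LIF and 87.1 and 94.3 without LIF (1.41 ± 0.32 SE). Irx5 lost its call on TPM (adjusted p = 0.12). Rises at chr14:118482692-120431697 joined 8 genes from Abcc4 (2.69) to Mbnl2 (1.72), among them the tight junction gene Cldn10, 57.1 times higher (95% exact interval 9.78 to 2299). The remaining long rise, 8 genes at chr17:35262730-35443773, ran from H2-D1 to H2-Q7 (2.18) in the class I region.

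More microRNA genes rose than fell, and the share that rose was near that of all genes. The libraries measured total RNA, so the reads stand for primary transcripts or host introns, not for mature microRNAs. Of 108 microRNA genes tested, 27 rose (25%, against 23.8% of all genes) and 4 fell (3.70%, against 25.1%), and 59 had a RefSeq mature sequence. A mature sequence is shown for each of 3 called loci, with the seed, bases 2 to 8, in capitals.
miR-196a-5p: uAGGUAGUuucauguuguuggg
miR-211-5p: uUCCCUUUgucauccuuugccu
miR-301b-5p: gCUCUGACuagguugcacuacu
These have different seeds. Mir196a-1, a HoxB-cluster locus, gave 34.3 and 63.8 in LIF and 1.91 and 3.37 without LIF (-2.95 ± 0.32 SE) and fell, without overlap. Mir211 was 35.9 times lower (95% exact interval 6.10 to 1453). Mir301b gave 7.01 and 5.40 in LIF and 46.9 and 26.9 without LIF and rose by 1.96. Of 35 tested microRNA genes inside Sfmbt2, an imprinted Polycomb-related gene, 12 rose, and the host gave 3223 and 3429 in LIF and 11664 and 6590.2 without LIF (1.40 ± 0.21 SE). In the imprinted Dlk1-Dio3 region on chromosome 12, 7 of 25 rose and none fell, beside Meg3 (1.03) and Rian (0.97), its maternally expressed lncRNAs. The counts in both regions compare with 25% higher and 3.70% lower over all 108 microRNA genes, without a test. Levels were low, and the highest mean normalised count of a called microRNA gene in either medium was 118. Near-identical copies in the Sfmbt2 cluster could not be separated.

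Promoters of genes that fell strongly held fewer CpG than those of all genes. In 15191 RefSeq windows of 11921 tested genes, the median number of CpG dinucleotides was 19, and 20 for uncalled genes. It was 16 for genes that rose by at least 1 and 11 for genes that fell by at least 1, and 15 and 6 at a size of at least 3. Windows with under 5 CpG made up 11.3% of all and 35.8% of those of genes that fell by at least 3. The ETS letters CCGGAAG, on either strand, were in 15.7% of all windows, in 19.1% of those of uncalled genes, in 4.06% of those of genes that rose by at least 3 and in 2.67% of those that fell as much. The TATA box letters TATAAA were in 7.47% of all windows and in 10.2% and 12.6% of these groups. Windows of 1 gene share bases, and these shares are descriptions without a test.

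The 150 bases before the start are shown for Fam131b and Car4, which rose, and for Crxos and Myh13, which fell. These stretches are single examples, with each CG in capitals (GRCm38.p6, RefSeq). They lie at chr6:42324641-42324790, minus strand, chr11:84957604-84957753, plus strand, chr7:15895974-15896123, plus strand (1 of 3 starts of Crxos) and chr11:67326953-67327102, plus strand.
Fam131b: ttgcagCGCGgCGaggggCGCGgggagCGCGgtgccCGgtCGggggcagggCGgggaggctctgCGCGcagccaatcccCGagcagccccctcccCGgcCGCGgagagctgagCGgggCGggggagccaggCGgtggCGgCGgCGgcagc
Car4: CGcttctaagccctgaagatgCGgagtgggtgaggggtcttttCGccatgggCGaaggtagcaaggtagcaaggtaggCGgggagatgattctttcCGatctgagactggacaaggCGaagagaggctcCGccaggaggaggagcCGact
Crxos: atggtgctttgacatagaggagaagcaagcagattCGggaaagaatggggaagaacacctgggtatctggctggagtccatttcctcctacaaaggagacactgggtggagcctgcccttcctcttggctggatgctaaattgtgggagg
Myh13: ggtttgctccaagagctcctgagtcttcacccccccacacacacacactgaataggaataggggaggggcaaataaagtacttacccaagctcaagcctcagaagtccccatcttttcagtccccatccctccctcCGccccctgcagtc
Fam131b has 22 CG in this stretch, Car4 9, and Crxos and Myh13 1 each. Fam131b is not typical of rises, since the median whole window of genes that rose by at least 3 held 15.

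**Figure D4:**
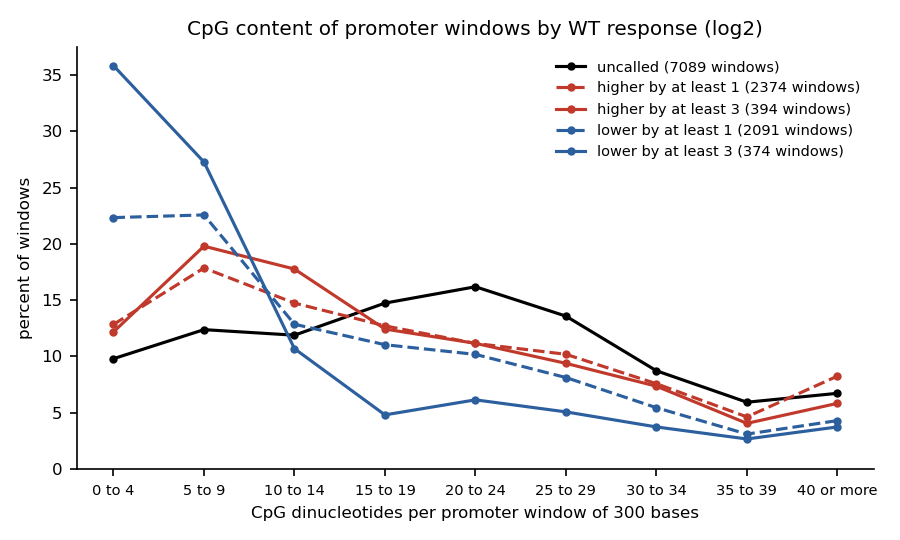
Percent of promoter windows (vertical axis) by number of CpG dinucleotides per window (horizontal axis, in bins) for uncalled genes (black) and for genes that rose (red) or fell (blue) by at least 1 (dashed) or at least 3 (solid). Genes that fell by at least 3 have 35.8% of their windows in the lowest bin, against 9.80% for uncalled genes.

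The largest shifts in transcript share, by TPM, fell on a small number of abundant RNAs. Dppa5a, an RNA-binding pluripotency marker, had TPM of 4745 and 4156 in LIF and 1574 and 1679 without LIF and fell by 1.48 on the log2 count scale. Spp1, osteopontin, had TPM of 1302 and 1276 in LIF and 216 and 199 without LIF (-2.67), and Tmsb10, an actin-binding peptide gene, fell by 1.38. Mitochondrially encoded mt-Nd1 (-0.78) and mt-Nd2 (-0.64) fell as well. mt-Nd2 lost its call on TPM (adjusted p = 0.059). The largest gain in TPM was in Rn7sk, a structural RNA that was not called (log2 0.14, adjusted p = 0.52), followed by the ferritin pseudogene Ftl2-ps (1.61), which rose. The ribosomal RNAs mt-Rnr1 (log2 0.15, adjusted p = 0.84) and mt-Rnr2 (0.80, adjusted p = 0.42) came next and were not called, though mt-Rnr2 was with a replicate block (adjusted p = 0.00049). Among other called gains, Mif, a cytokine gene, had TPM of 759 and 669.8 in LIF and 2339.9 and 2025 without LIF (1.58), and the nuclear lncRNA Malat1 rose by 0.77. Ftl1, ferritin light chain, rose by 1.47, with reads that Ftl2-ps may share.

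The mutant lines gave most of the same calls after the same withdrawal. In the same model 47.1% of genes passed in R342C, 44.3% in K365T and 46.1% in Q418R. Of the 4175 genes that rose in the wild-type line, 85.8% rose in R342C, 73.5% in K365T and 78.2% in Q418R, and 64.0% rose in all 3. Of the 4409 that fell, the shares were 85.3%, 75.2% and 79.1%, and 64.9% in all 3. Calls in the opposite direction numbered 12 and 11 in K365T and 5 and 4 in Q418R, for rises and falls, and 0 in R342C. Thbs1, with 6.96 in the wild-type line, gave 6.10 in R342C, 4.76 in K365T and 5.36 in Q418R. Prdm14, with -6.08, gave -7.05 in R342C, -5.40 in K365T and -5.34 in Q418R, and Asns, with -2.23, gave -2.37 in R342C, -2.70 in K365T and -2.59 in Q418R.

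**Figure D5:**
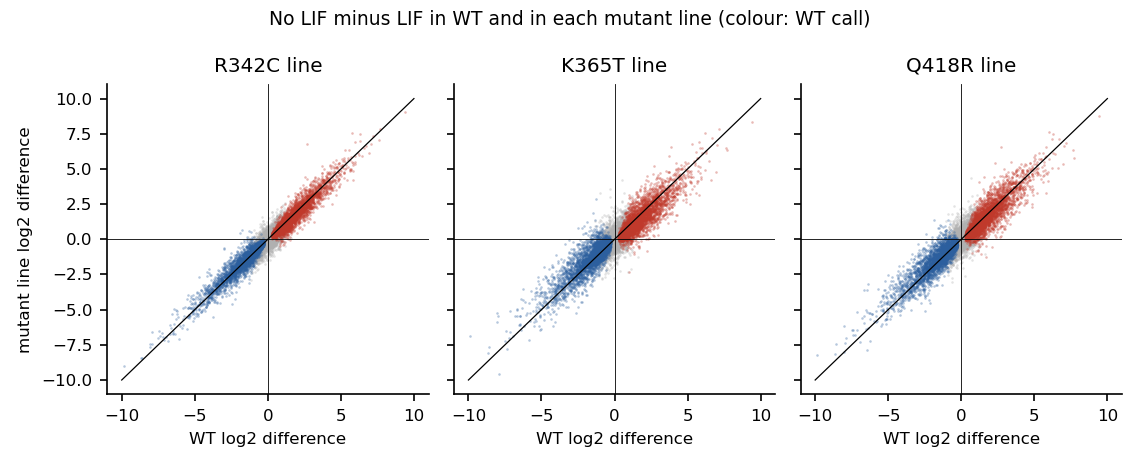
Log2 difference between media in the wild-type line (horizontal axes) against that in the R342C, K365T and Q418R lines (vertical axes, 1 panel each), 1 point per gene, coloured by the call in the wild-type line (red higher, blue lower, grey uncalled), with a line where both are equal. Of the wild-type calls, 64.0% of the rises and 64.9% of the falls were called in the same direction in all 3 mutant lines.

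The difference between the responses was tested directly as the wild-type response minus the mean mutant response. No gene passed with limma (0.0%) or with edgeR, and 1107 genes (6.31%) had an unadjusted p under 0.05. DESeq2 called 80 genes, 39 higher and 41 lower. With the replicate number as a block, 26 genes passed, 10 higher and 16 lower. Without replicate 1 of the wild-type group without LIF 4 genes passed, and without its replicate 2, 2 genes. A miss of the threshold does not show that the responses were alike.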

How the data were processed

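RNA of 16 libraries was measured from total RNA depleted of ribosomal RNA, 4 of them from the wild-type line. Per the submitters' processing notes, Trim Galore, STAR, DESeq2 and the build mm10 were used, and versions, counting tool, counting strand and annotation are not given in the sources used here. Counts normalised by the authors, a signal with 1 scaling factor per library, were deposited and used for the main results. TPM were also deposited, made by the authors with gene lengths not given in the sources used here. Normalised counts, divided by the value of 1 read, were whole within 0.05 for 100% of entries in each library, which gave the reads used for edgeR and DESeq2.

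The main model, limma 3.58.1 with a trend (R 4.3.3), took log2 of each normalised count with 4 added, on all 16 libraries with 8 group means and 8 residual degrees of freedom. Genes with a mean of at least 10 over the 4 wild-type libraries were tested, and p was adjusted by Benjamini-Hochberg over all 17556 of them (threshold 0.05). The fit was tested on simulated data. For genes with at most 3 reads in a medium a ratio with a 95% exact binomial interval is given, or a bound from a floor of 3 reads over both libraries. Alternatives were edgeR 4.0.16 (TMM, quasi-likelihood), DESeq2 1.42.0, TPM, upper-quartile scaling, pseudocounts of 1 and 16, other filters, the 4 wild-type libraries alone, each replicate left out, and a replicate block. Same-numbered libraries of the 2 media deviated together (correlations 0.40 in the wild-type line, 0.36, 0.39 and 0.43 in R342C, K365T and Q418R, over 11713 genes with a mean of at least 100), so the numbers were taken to pair them. The main model has no block for these pairs, and the fit with the block is given where it changes a call or moves a count by over 1.5 times.

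Members and gene lists were chosen with earlier results of these data known. Named were the 15 largest rises and 15 largest falls with a mean of at least 100 and no overlap (without clone names), the 10 largest gains and losses of TPM, up to 4 called members by size and the 2 most abundant in each list described, the 5 longest runs, and genes with a list's motif; some of them are not reported here, and some further members of lists are named after their values were seen. Gene positions are from GENCODE M21, found for 17181 of the genes, and promoters and microRNAs from RefSeq tables (GRCm38.p6).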

Additional observations from a re-analysis of the deposited data

How the results depend on the processing

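The count of 8584 genes called between media was within 1.5 times under each alternative, from 7174 on TPM and 7729 in the 4 wild-type libraries alone to 9607 without a filter and 9912 with the replicate block, and no gene called in both was called in the opposite direction. Leaving out single replicates gave 6861 to 7839 calls. edgeR kept 98.6% of the calls. Upper-quartile scaling raised the share of higher genes among calls to 53.2%. For the difference between the wild-type and the mean mutant response, with 0 calls, DESeq2, chosen after seeing the data for this result, gave 80 (39 higher, 41 lower). The replicate block, which pairs same-numbered libraries, gave 26 (10 higher, 16 lower). Leaving out replicates gave 0 to 4 calls, 0 to 3 higher and 0 to 2 lower. The cause of these shifts was not tested. Of 184 called genes named in the text, 165 kept their call in all 15 alternatives, 14 lost it when a library was left out and none reversed. The block ended no call of these genes. It moved the number of ribosomal protein genes that rose from 8 to 15 and that fell from 3 to 5. For respiratory chain genes outside complex I, it moved the number that rose from 1 to 2. With 2 libraries per medium, the median 95% half-width of a gene's log2 difference was 0.50, so that smaller changes were often not detectable.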

Other observations

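Iron handling genes, chosen after their values were seen, moved in both directions. Slc40a1, which encodes the iron exporter ferroportin, had normalised counts of 49.8 and 46.5 in LIF and 492 and 254 without LIF (2.78 ± 0.34 SE), and Tfrc, the transferrin receptor that takes up iron, gave 6620.3 and 5047 in LIF and 2714 and 1736 without LIF (-1.41 ± 0.28 SE). Fth1, ferritin heavy chain, rose by 0.63 beside Ftl1. In both transport genes the libraries of the media did not overlap, as in 73.8% of all genes.

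Of 12 tested members of the Zic zinc finger family and the Irx and sine oculis homeobox families, 9 rose (75%) and 1 fell (8.33%). Their median was 1.53. Of 22 pluripotency-associated lncRNA genes of the Platr group, 10 fell (45.5%) and 4 rose (18.2%). Of 77 mitochondrial ribosomal protein genes, 16 fell (20.8%) and 3 rose (3.90%). These shares compare with 23.8% of all genes higher and 25.1% lower, so the mitochondrial ribosomal share that fell was below that of all genes.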
